A study of Homo sapiens with 14 samples.

Results

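The small nucleolar RNA (snoRNA) host genes are long noncoding RNA genes whose introns carry snoRNAs. They were taken here as every gene symbol that consists of SNHG and a number, together with GAS5, ZFAS1, EPB41L4A-AS1 and DANCR, which gave 32 of the 59050 gene symbols in the table. After the filter on low counts, 26 of the 32 were tested in ribosome profiling (Ribo), 28 in RNA sequencing (RNA) and 24 in both. The cells were HUES8, an established human embryonic stem cell line, labelled WT in genotype in every group and driven along a pancreatic path in culture. Libraries came from late pancreatic progenitors (PP2), early pancreatic progenitors (PP1) and definitive endoderm (DE), with 3 PP2, 2 PP1 and 2 DE libraries in each assay and 14 in all. The Ribo libraries were made from RNA held on ribosomes, and the RNA libraries from total RNA depleted of ribosomal RNA. All groups therefore share 1 cell line and culture system, and whether replicates were separate differentiations is not given in the sources used here, so a p-value here speaks to differences among libraries, some of which may be technical.

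A snoRNA host transcript is spliced, its introns are trimmed to release snoRNAs, and its exons are left as a noncoding RNA. Box C/D snoRNAs guide ribose methylation and box H/ACA snoRNAs guide pseudouridylation, mostly of ribosomal RNA. Many host genes, noncoding and protein-coding, begin with a terminal oligopyrimidine (TOP) tract, a C followed by pyrimidines that ties translation to growth signals, and the spliced exons of several noncoding hosts, GAS5 and SNHG1 among them, are known to enter ribosomes and to be removed by nonsense-mediated decay.

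The starts of 13 of these genes are shown because the results below turn on them and because the TOP tract is read from these bases. Each line gives 10 bases before the annotated start and 25 from it, in the sense of transcription, from RefSeq (GRCh38.p14), and the capitals mark the unbroken run of C and T from the first transcribed base. The first 4 genes passed the test (adjusted p under 0.05) as higher in Ribo than in RNA at every stage, the next 3 as lower at every stage, and the other 6 are shown for their stage changes or their tract.
GAS5 (chr1:173869021-173869055, minus strand): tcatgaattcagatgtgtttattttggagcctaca
SNHG1 (chr11:62855861-62855895, minus strand): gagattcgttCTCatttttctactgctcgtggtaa
SNHG8 (chr4:118278752-118278786, plus strand): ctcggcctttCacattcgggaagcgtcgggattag
SNHG12 (chr1:28581849-28581883, minus strand): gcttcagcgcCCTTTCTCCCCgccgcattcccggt
SNHG3 (chr1:28505933-28505967, plus strand): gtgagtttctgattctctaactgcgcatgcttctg
SNHG14 (chr15:24823598-24823632, plus strand): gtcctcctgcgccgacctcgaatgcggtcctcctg
SNHG16 (chr17:76557754-76557788, plus strand): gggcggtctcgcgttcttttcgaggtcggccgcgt
SNHG5 (chr6:85678709-85678743, minus strand): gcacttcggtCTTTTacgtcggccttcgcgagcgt
SNHG18 (chr5:9546190-9546224, plus strand): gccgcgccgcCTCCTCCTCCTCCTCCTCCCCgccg
SNHG19 (chr16:2155334-2155368, minus strand): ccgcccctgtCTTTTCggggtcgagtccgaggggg
SNHG32 (chr6:31834906-31834940, plus strand): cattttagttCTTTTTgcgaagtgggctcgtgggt
ZFAS1 (chr20:49278632-49278666, plus strand): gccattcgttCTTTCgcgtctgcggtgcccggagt
DANCR (chr4:52712384-52712418, plus strand): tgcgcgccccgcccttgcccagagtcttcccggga
Of the 13, SNHG5, SNHG12, SNHG18, SNHG19, SNHG32 and ZFAS1 began with a C in a run of at least 5 pyrimidines, of 5, 11, 21, 6, 6 and 5 bases. GAS5 began with A and SNHG3, SNHG14, SNHG16 and DANCR with G, so their run was 0, and the run was 3 in SNHG1 and 1 in SNHG8. For SNHG12 and ZFAS1 the start in the table is not the outer edge of the annotated gene. All are annotated starts, and the starts used in these cells were not mapped. A run of 0 thus does not show that a gene lacks a TOP tract, and in SNHG16 a run of pyrimidines follows a few bases in.

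Depth was 4710335 to 24186949 counts in Ribo libraries and 15107847 to 21009065 in RNA libraries. RNA of SOX17, a definitive endoderm factor, was 454 to 486 CPM, counts scaled to a common library total, in DE, 9.41 to 13.2 in PP1 and 0.417 to 0.876 in PP2, and that of PDX1, a pancreatic regulator, was 0 in DE, 58.2 to 64.0 in PP1 and 42.1 to 212 in PP2. Markers of other cell types moved with stage too, and the sum of 4 hepatic markers was 13.8 to 14.6 CPM in DE, 7835 to 8401 in PP1 and 1664 to 4429 in PP2, with AFP and TTR at 0 in DE. The sum of 4 mesenchymal markers was 155 to 185 CPM in DE, 361 to 405 in PP1 and 192 to 247 in PP2, and that of 4 endocrine markers, of which INS and GCG stayed at or near 0, was 1.48 to 1.79, 0.728 to 1.37 and 47.9 to 70.7 CPM. Their part in the host gene changes was not tested. In bulk cultures fewer cells of a type and less RNA per cell cannot be told apart.

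3 of the 14 libraries are called the libraries that stood apart here, 1 in RNA for the levels of the host genes and 2 in Ribo for their share of mitochondrial RNA. In RNA PP2 replicate 3, 21 of the 28 tested host genes had their highest value of the 7 RNA libraries, against 24.9% of all tested genes, and the median host gene was log2 0.77 above the other PP2 libraries (all tested genes -0.02). Ribo PP2 replicates 1 and 3 had 1.65% and 11.0% of counts in the mitochondrial ribosomal RNA MT-RNR2, against 44.6% to 60.8% in the other 5 Ribo libraries. The median host gene lay log2 -1.35 and -0.45 relative to the other PP2 Ribo libraries in replicates 1 and 3, and 1.498 in replicate 2, so among the PP2 Ribo libraries the host genes lay farthest from the others in replicate 2. Host genes took 0.248% of counts in RNA PP2 replicate 3 and 0.162% to 0.187% in the other 6 RNA libraries. Counts of calls at PP2, and many of the named PP2 values, are also given without them. Without them Ribo has 1 PP2 library, which is then assumed to vary like the other groups.

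**Figure D1:**
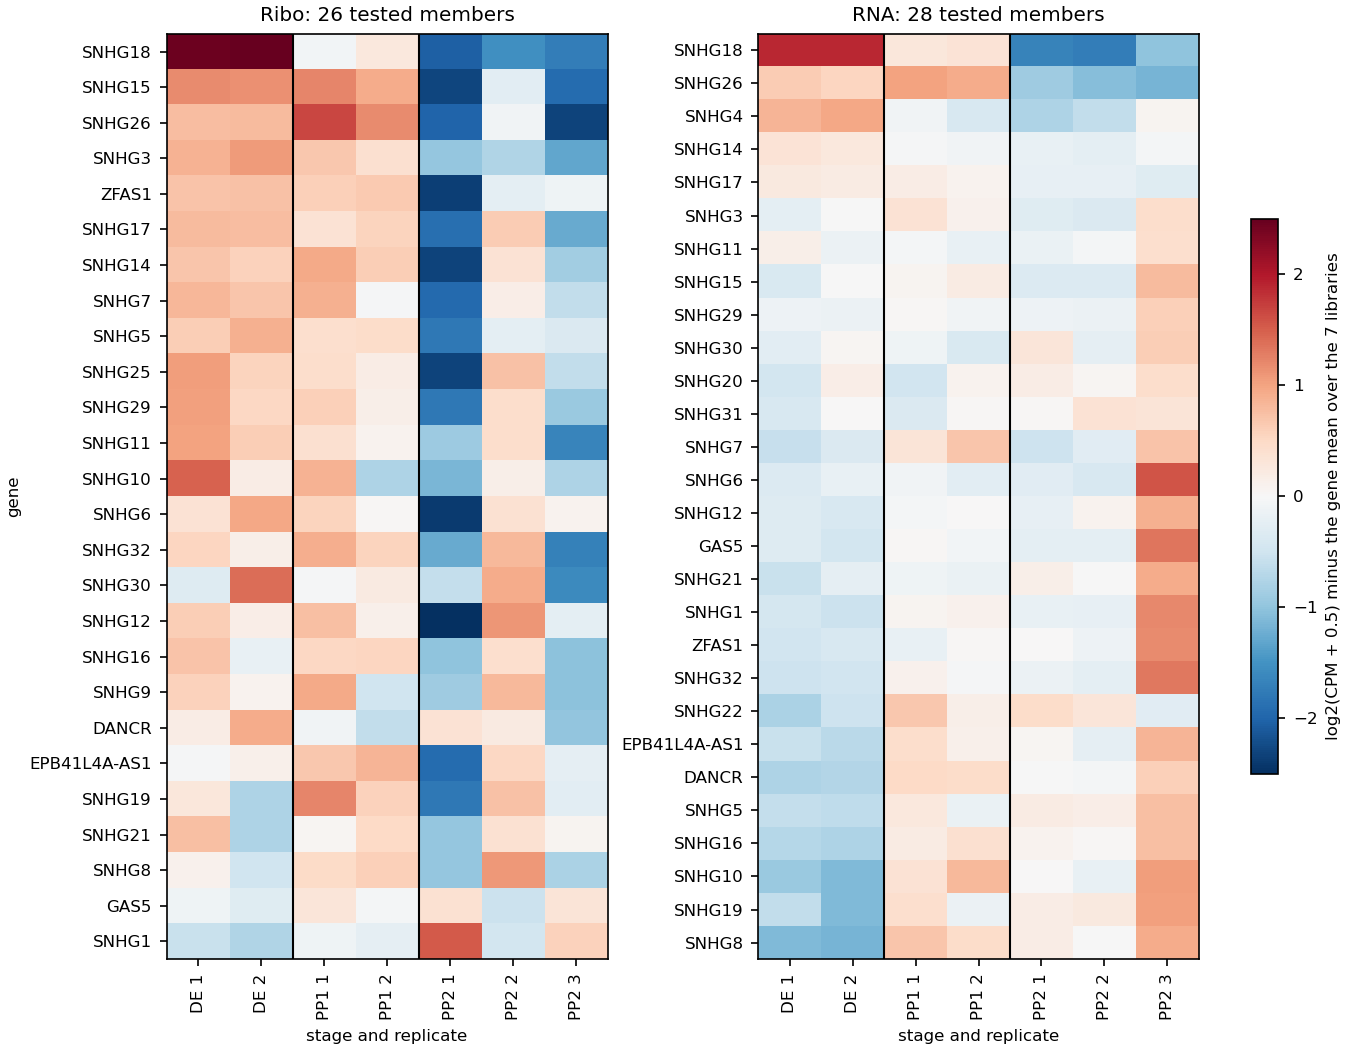
Level of each tested snoRNA host gene in each library, Ribo at the left and RNA at the right, as log2(CPM + 0.5) minus the mean of the gene over the 7 libraries of the assay, with the colour scale cut at 2.5 either way. Rows are genes and columns are libraries by stage and replicate. RNA PP2 replicate 3 is red and Ribo PP2 replicate 1 blue for most genes, and SNHG18, at the top of each panel, goes past the scale in 1 DE Ribo library.

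Levels of different genes are compared per length of the gene model, as RPKM (CPM divided by the length in kilobases) averaged over the 7 libraries of an assay. In Ribo the highest host gene was SNHG1 at 133 RPKM, followed by GAS5 at 75.8, SNHG25 at 69.6, SNHG6 at 23.5 and SNHG19 at 18.8. In RNA the order was SNHG1 at 27.3 RPKM, SNHG6 at 25.9, SNHG29 at 20.3, GAS5 at 19.9 and DANCR at 15.9. SNHG1 and GAS5 were therefore among the leading members in both assays, while DANCR, 19th in Ribo at 1.37 RPKM, was the fifth in RNA. SNHG25 had 912 counts over all Ribo libraries and 36 over all RNA libraries.

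The first comparison in RNA set PP1 against DE, the step at which endoderm takes a pancreatic course. SNHG8, SNHG10, DANCR and SNHG16 rose and SNHG18 and SNHG4 fell (edgeR quasi-likelihood test, adjusted p under 0.05). These 6 of 28 tested members, or 21.4%, stand beside 24.3% of all tested genes called in the same comparison (12.3% higher and 12% lower), a share near the background. The median of the 28 was log2 0.37, against 0.01 over all tested genes, with 21 positive and 7 negative. At an unadjusted p under 0.05 there were 11, and the share of all genes at that level was not counted. The count moved with RNA PP2 replicate 3, which enters the fit through the shared estimate of spread. Without it 15 rose and 3 fell, with 49.8% of all genes called. Without any 1 of the DE or PP1 libraries the count was 1, SNHG18 without a DE library and SNHG8 without a PP1 library, beside 11% to 12.1% of all genes.

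SNHG8, host of the H/ACA snoRNA SNORA24, had 48.4 and 31.3 (DE), 62.7 and 67.7 (PP1), 22.5, 95.1 and 25.4 (PP2) Ribo CPM and 6.41 and 6.18 (DE), 23.4 and 20.01 (PP1), 16.5, 14.3 and 27.6 (PP2) RNA CPM. Each DE library lay below all PP1 and PP2 libraries in RNA, and SNHG8 rose at PP1 (log2 1.79 ± 0.33, adjusted p = 0.00553, the error being the standard error of the fit) and lay higher at PP2 than at DE (log2 1.63 ± 0.31, adjusted p = 0.00467). In Ribo PP1 lay above DE without overlap, but PP2 spread from below DE to above PP1, and no Ribo comparison passed (log2 0.71 ± 0.62, adjusted p = 0.553 for PP1 over DE). Leaving out Ribo PP2 replicates 1 and 3 gave log2 1.30 ± 0.32 for Ribo PP2 over DE (adjusted p = 0.00817).

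SNHG10, host of the small Cajal body RNA SCARNA13, had 6.03 and 2.17 (DE), 3.77 and 0.871 (PP1), 0.559, 2.07 and 0.867 (PP2) Ribo CPM and 3.98 and 3.46 (DE), 10.4 and 14.6 (PP1), 8.14, 6.99 and 17.1 (PP2) RNA CPM, with DE below every other library in RNA. It rose at PP1 (log2 1.75 ± 0.45, adjusted p = 0.023) and stayed higher at PP2 than at DE (log2 1.53 ± 0.42, adjusted p = 0.0235). DE and PP1 overlapped in Ribo and the highest PP2 library lay just under the lower DE one, with log2 fold changes that did not pass.

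DANCR, whose name records that it antagonises differentiation and which hosts SNORA26, had 3.37 and 5.98 (DE), 2.69 and 1.74 (PP1), 3.86, 3.495 and 1.23 (PP2) Ribo CPM and 20.1 and 20.9 (DE), 49.0 and 48.1 (PP1), 34.8, 33.6 and 53.0 (PP2) RNA CPM. In RNA DE was lowest, the PP1 libraries lay close together, and PP2 replicate 3 lay above them while replicates 1 and 2 lay below. It rose at PP1 (log2 1.24 ± 0.25, adjusted p = 0.0084) and was higher at PP2 than at DE (log2 0.98 ± 0.23, adjusted p = 0.013). Without RNA PP2 replicate 3 it fell at PP2 relative to PP1, at log2 -0.50 ± 0.11 (adjusted p = 0.000884). In Ribo, on 6 to 152 counts a library, both PP1 libraries of DANCR lay below both DE libraries and PP2 overlapped each.

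SNHG16, host of the SNORD1 snoRNAs, had 9.57 and 4.89 (DE), 8.34 and 8.42 (PP1), 2.57, 7.77 and 2.53 (PP2) Ribo CPM and 46.6 and 44.6 (DE), 88.1 and 101 (PP1), 81.1, 77.4 and 129 (PP2) RNA CPM. In RNA DE lay below all other libraries, and it rose at PP1 (log2 1.05 ± 0.27, adjusted p = 0.0243) and at PP2 relative to DE (log2 1.07 ± 0.25, adjusted p = 0.0128). In Ribo the stages of SNHG16 overlapped, except that PP2 lay under PP1.

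SNHG18 fell in every comparison within an assay. Ribo of SNHG18 was 17.7 and 20.3 (DE), 2.69 and 3.48 (PP1), 0.305, 0.647 and 0.506 (PP2) CPM and RNA was 27.4 and 27.6 (DE), 8.77 and 9.10 (PP1), 1.88, 1.79 and 3.27 (PP2) CPM. The stages did not overlap in either assay. In Ribo it fell at PP1 (log2 -2.62 ± 0.59, adjusted p = 0.0215), at PP2 relative to PP1 (log2 -2.74 ± 0.58, adjusted p = 0.0245) and over both steps (log2 -5.36 ± 0.56, adjusted p = 0.000123), on 5 to 12 counts in the PP1 and PP2 libraries. In RNA it fell at PP1 (log2 -1.62 ± 0.29, adjusted p = 0.00508) and again at PP2 relative to PP1 (log2 -1.94 ± 0.28, adjusted p = 0.00292), and over both steps (log2 -3.56 ± 0.28, adjusted p = 4.51e-05). Both falls over the whole course, and the RNA fall at PP2 relative to PP1, passed in all 14 settings tried. The RNA fall at PP1 was lost without either PP1 library, and the Ribo falls of the single steps were lost in 5 of 14 settings each, for PP2 over PP1 the fit without the libraries that stood apart among them.

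SNHG4, host of SNORA74A, was tested in RNA only and had 0 to 10 counts in the Ribo libraries and 18.5 and 20.1 (DE), 9.39 and 7.43 (PP1), 5.64, 6.33 and 10.5 (PP2) RNA CPM. DE lay above all other RNA libraries, and it fell at PP1 (log2 -1.20 ± 0.32, adjusted p = 0.0275) and at PP2 relative to DE (log2 -1.36 ± 0.28, adjusted p = 0.00722).

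The second step set PP2 against PP1 in RNA. SNHG26 and SNHG18 fell and none rose, 2 of 28 or 7.14%, beside 18.4% of all genes (7.8% higher and 10.6% lower). SNHG26 had 6.21 and 6.34 (DE), 12.1 and 8.42 (PP1), 0.483, 3.24 and 0.289 (PP2) Ribo CPM and 27.7 and 25.7 (DE), 35.6 and 33.6 (PP1), 9.29, 8.16 and 7.56 (PP2) RNA CPM, with all PP2 libraries below all DE and PP1 libraries in both assays. In RNA it fell at PP2 relative to PP1 (log2 -2.05 ± 0.17, adjusted p = 0.000353) and to DE (log2 -1.68 ± 0.17, adjusted p = 0.000196), each in all 14 settings tried. Ribo of SNHG26 at PP2 relative to PP1 did not pass (log2 -3.07 ± 0.88, adjusted p = 0.0702), and was log2 -1.66 ± 0.67 (adjusted p = 0.214) without Ribo PP2 replicates 1 and 3.

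The other members' step from PP1 to PP2 turned on 1 library, RNA PP2 replicate 3. This library was picked for its high host gene levels, so leaving it out tends to lower their PP2 values by that choice. With all RNA libraries the median of the 28 was log2 0.10, with 17 positive and 11 negative, against 0.01 over all genes. Without RNA PP2 replicate 3 the median was log2 -0.23, with 8 positive and 20 negative (all genes 0). In that fit 12 members fell while none rose, beside 41.4% of all genes called (18.2% higher and 23.3% lower). These 12 were SNHG18, SNHG26, SNHG3, SNHG4, SNHG7, SNHG8, SNHG10, SNHG15, SNHG16, SNHG17, SNHG1 and DANCR. SNHG15, SNHG1 and SNHG16 changed sign between the fits, since their fitted values with all libraries were log2 0.01 ± 0.37, 0.36 ± 0.41 and 0.02 ± 0.25.

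Over both steps, RNA at PP2 against DE, SNHG8, SNHG5, DANCR, SNHG16, SNHG19 and SNHG10 rose and SNHG18, SNHG26 and SNHG4 fell. These 9 of 28, or 32.1%, stand beside 33.5% of all genes (16.4% higher and 17.1% lower), again near the background. Without RNA PP2 replicate 3 the counts were 10 higher and 5 lower, with 52.5% of all genes called, since SNHG1, SNHG22, ZFAS1 and EPB41L4A-AS1 then passed as higher and SNHG14 and SNHG17 as lower beside the same 9. Without DE replicate 1 the count of calls was 4 (SNHG18, SNHG26, SNHG8 and SNHG4) beside 16.8% of all genes, and without DE replicate 2 it was 2 (SNHG18 and SNHG26) beside 15.8%.

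**Figure D2:**
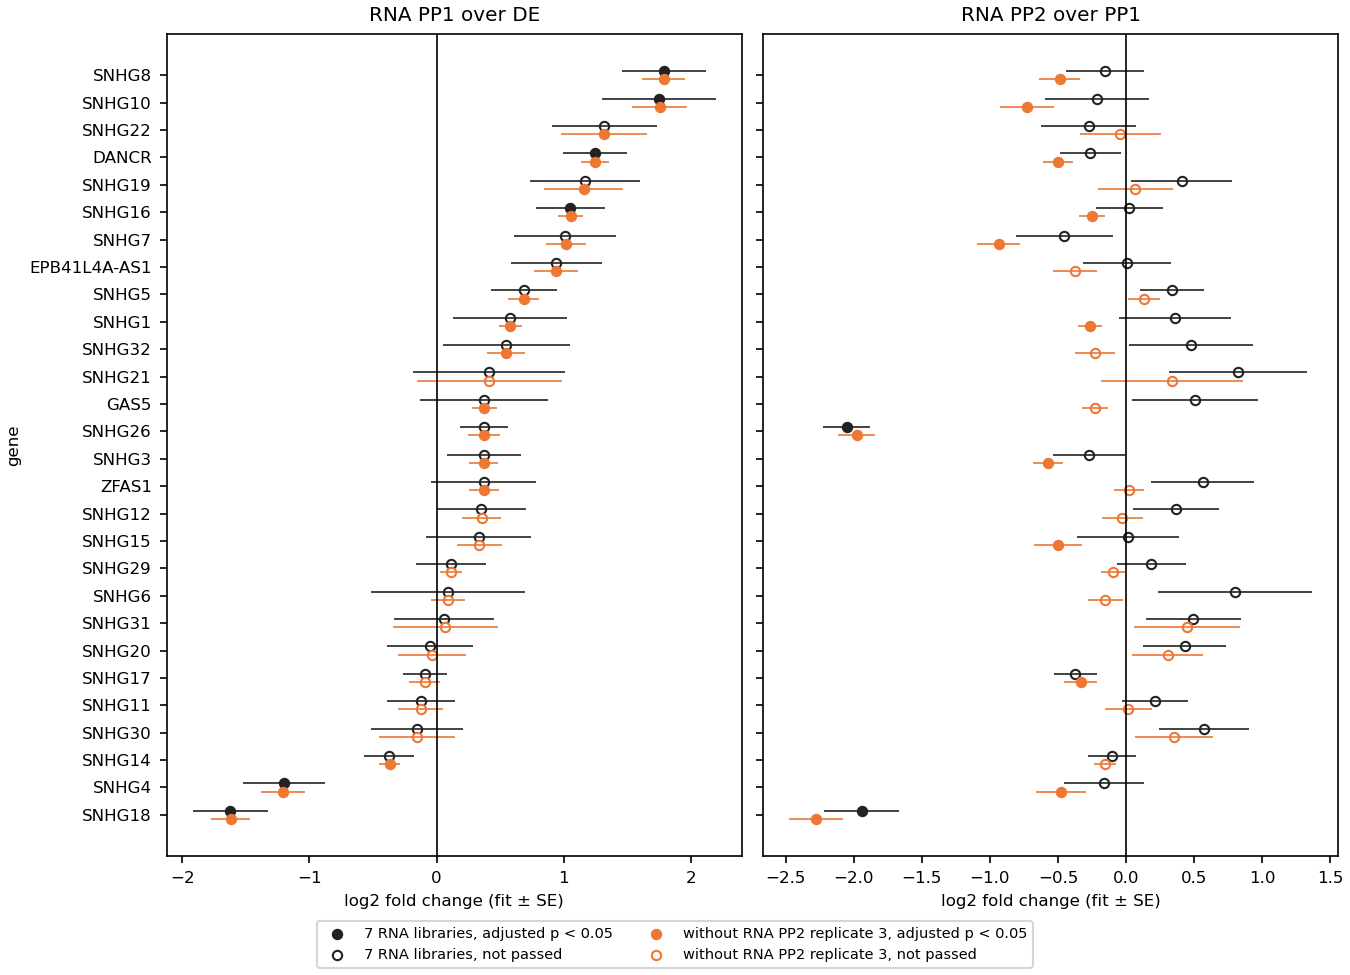
Fitted log2 fold change of the 28 tested host genes in RNA, PP1 over DE at the left and PP2 over PP1 at the right, with the standard error of the fit as a line. Black points use all 7 RNA libraries and orange points leave out PP2 replicate 3; filled points passed. In the right panel SNHG18 and SNHG26 lie near or past log2 -2 in either fit, and SNHG1, SNHG15 and SNHG16 lie right of 0 in black and left of it in orange.

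Hosts of box C/D snoRNAs are given next, beginning with the pair that held the most Ribo counts. SNHG1, known first as the host gene of SNORD22, held 309 and 268 (DE), 421 and 388 (PP1), 1309, 332 and 673 (PP2) Ribo CPM and 73.5 and 68.3 (DE), 104 and 107 (PP1), 88.1, 87.1 and 231 (PP2) RNA CPM. DE was lowest in both assays, Ribo PP2 replicate 1 held 51515 of its 69518 Ribo counts, and PP2 overlapped PP1 in each assay. No stage comparison of SNHG1 passed with all libraries, and Ribo PP2 over DE was 1.42 ± 0.59 on the log2 scale, against 0.25 ± 0.27 without Ribo PP2 replicates 1 and 3. GAS5, known for its accumulation in growth-arrested cells and host to a series of C/D snoRNAs, held 330.1 and 292 (DE), 443 and 348 (PP1), 466, 246 and 445 (PP2) Ribo CPM and 69.9 and 63.3 (DE), 89.9 and 83.0 (PP1), 73.5, 73.6 and 221 (PP2) RNA CPM. Its Ribo values overlapped between PP2 and each other stage, and its RNA was lowest in DE and highest in PP2 replicate 3. GAS5 did not pass in any stage comparison (log2 0.31 ± 0.44, adjusted p = 0.623 for Ribo PP2 over DE and log2 0.88 ± 0.47, adjusted p = 0.189 for RNA). Without the libraries that stood apart these were log2 -0.29 ± 0.28 in Ribo and 0.15 ± 0.10 in RNA (adjusted p = 0.565 and 0.2).

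SNHG5, host of SNORD50A and SNORD50B, moved in opposite directions in the assays. It held 84.9 and 104 (DE), 74.3 and 76.7 (PP1), 15.8, 46.9 and 43.1 (PP2) Ribo CPM, the stages falling apart without overlap, and 38.0 and 37.1 (DE), 69.5 and 51.7 (PP1), 66.9, 64.8 and 97.6 (PP2) RNA CPM, with DE lowest. At PP2 relative to DE it fell in Ribo (log2 -1.43 ± 0.43, adjusted p = 0.0319) and rose in RNA (log2 1.02 ± 0.24, adjusted p = 0.0123). Without the libraries that stood apart the Ribo fall was not called (log2 -0.96 ± 0.32, adjusted p = 0.052). In RNA it then also rose at PP1 relative to DE (log2 0.69 ± 0.12, adjusted p = 8.84e-05).

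SNHG12, which hosts SNORD99 and 3 H/ACA snoRNAs, held 74.6 and 54.9 (DE), 82.3 and 53.7 (PP1), 8.08, 106 and 41.5 (PP2) Ribo CPM and 13.4 and 12.6 (DE), 16.2 and 17.0 (PP1), 14.6, 17.9 and 31.7 (PP2) RNA CPM. Ribo PP2 replicates 1 and 2 were its lowest and highest Ribo libraries, and no stage comparison of SNHG12 passed. SNHG19, host of SNORD60, held 6.56 and 2.90 (DE), 12.9 and 8.13 (PP1), 1.17, 9.06 and 4.33 (PP2) Ribo CPM and 2.43 and 1.59 (DE), 5.55 and 3.59 (PP1), 4.59, 4.85 and 8.62 (PP2) RNA CPM, and its RNA rose at PP2 relative to DE (log2 1.57 ± 0.40, adjusted p = 0.0175), with DE below all other libraries. SNHG32, host of SNORD48 and SNORD52, held 21.98 and 16.5 (DE), 28.5 and 22.1 (PP1), 5.97, 26.4 and 4.26 (PP2) Ribo CPM and 11.9 and 12.2 (DE), 18.6 and 16.8 (PP1), 15.6, 14.4 and 43.7 (PP2) RNA CPM. In SNHG32 the lowest Ribo libraries were PP2 replicates 1 and 3 and the highest RNA library was PP2 replicate 3, and no stage comparison passed.

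ZFAS1, transcribed antisense to the start of ZNFX1 and host of the SNORD12 snoRNAs, held 38.8 and 39.1 (DE), 35.8 and 37.2 (PP1), 4.19, 19.5 and 21.7 (PP2) Ribo CPM and 31.7 and 33.4 (DE), 38.8 and 45.3 (PP1), 44.6, 40.6 and 101 (PP2) RNA CPM. All PP2 Ribo libraries of ZFAS1 lay below the other stages, but PP2 over DE did not pass (log2 -1.38 ± 0.54, adjusted p = 0.0793). SNHG6, host of SNORD87, held 31.9 and 48.9 (DE), 36.3 and 25.3 (PP1), 4.27, 32.1 and 26.2 (PP2) Ribo CPM and 22.02 and 24.7 (DE), 26.4 and 23.3 (PP1), 23.2, 21.3 and 85.2 (PP2) RNA CPM. RNA PP2 replicate 3 was 3.83 times the mean of the other PP2 libraries in SNHG6, and the remaining 6 RNA libraries lay between 21.3 and 26.4 CPM. SNHG29, host of SNORD49A, SNORD49B and SNORD65, held 117 and 82.2 (DE), 87.2 and 63.0 (PP1), 16.1, 77.8 and 29.8 (PP2) Ribo CPM and 131 and 129 (DE), 146 and 135 (PP1), 131, 130.3 and 218 (PP2) RNA CPM, level across 6 RNA libraries and highest in PP2 replicate 3.

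SNHG14 is the long transcript of the imprinted Prader-Willi region, which hosts the SNORD115 and SNORD116 clusters and runs antisense to UBE3A. It held 99.1 and 92.4 (DE), 118 and 94.1 (PP1), 12.0, 78.6 and 33.5 (PP2) Ribo CPM and 1209.6 and 1143 (DE), 927 and 893 (PP1), 830.5, 797 and 912 (PP2) RNA CPM, the highest RNA CPM of all members over the longest gene model, 122609 bases. Its RNA was highest in DE and its Ribo lowest in PP2, without overlap, but neither passed with all libraries (log2 -0.47 ± 0.18, adjusted p = 0.0722 in RNA for PP2 over DE). Ribo PP2 over DE was log2 -1.22 ± 0.58, against -0.23 ± 0.31 without Ribo PP2 replicates 1 and 3. The strand setting of the counting is not given in the sources used here, so reads of SNHG14 and of genes on the opposite strand cannot be told apart; the same holds for ZFAS1, EPB41L4A-AS1 and other members that overlap a neighbour.

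Among the H/ACA hosts, SNHG3, host of SNORA73A and SNORA73B, held 4.96 and 5.80 (DE), 4.30 and 3.48 (PP1), 1.04, 1.29 and 0.722 (PP2) Ribo CPM and 41.5 and 48.2 (DE), 63.1 and 53.0 (PP1), 39.4, 38.2 and 66.3 (PP2) RNA CPM. Its Ribo stages did not overlap and were highest in DE, from 10 to 41 counts a library, while its RNA was higher in PP1 than in DE and PP2 overlapped both. SNHG3 fell in Ribo at PP2 relative to DE (log2 -2.40 ± 0.66, adjusted p = 0.0225), and the RNA comparison did not pass (log2 0.10 ± 0.27, adjusted p = 0.81). The Ribo call was lost in 8 of 14 settings, the fit without the libraries that stood apart among them.

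SNHG15, host of SNORA9, held 39.2 and 38.6 (DE), 40.6 and 33.1 (PP1), 3.10, 14.1 and 4.12 (PP2) Ribo CPM and 8.84 and 11.6 (DE), 12.2 and 13.5 (PP1), 9.13, 9.03 and 20.6 (PP2) RNA CPM. All PP2 Ribo libraries lay under every DE and PP1 library, while PP2 overlapped both other stages in RNA. In Ribo SNHG15 fell at PP2 relative to PP1 (log2 -2.42 ± 0.56, adjusted p = 0.0339) and to DE (log2 -2.496 ± 0.55, adjusted p = 0.00887). Without the libraries that stood apart both passed, at log2 -1.38 ± 0.39 (adjusted p = 0.0488) and -1.41 ± 0.39 (adjusted p = 0.0176), so the sizes were smaller. The fall relative to DE passed in all 14 settings tried, and that relative to PP1 was lost in 6, namely the replicate block and the fits without any 1 of the DE or PP1 libraries or PP2 replicate 3.

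SNHG17, host of the SNORA71 snoRNAs, held 28.9 and 28.4 (DE), 21.3 and 24.4 (PP1), 4.09, 25.8 and 6.57 (PP2) Ribo CPM and 29.0 and 28.1 (DE), 27.6 and 25.9 (PP1), 21.1, 21.1 and 19.7 (PP2) RNA CPM, and its RNA was lower in all PP2 libraries than in any other (log2 -0.37 ± 0.16, adjusted p = 0.136 for PP2 over PP1, not passed). SNHG7, host of SNORA17A and SNORA17B, held 11.5 and 10.5 (DE), 12.1 and 6.10 (PP1), 1.27, 7.12 and 3.90 (PP2) Ribo CPM and 12.7 and 14.7 (DE), 24.1 and 31.0 (PP1), 13.1, 15.7 and 31.6 (PP2) RNA CPM. RNA of SNHG7 was higher in PP1 and in PP2 replicate 3 than in the other 4 RNA libraries, and no stage comparison passed. EPB41L4A-AS1, antisense to EPB41L4A and host of SNORA13, held 11.2 and 12.5 (DE), 18.3 and 20.9 (PP1), 2.64, 16.4 and 9.61 (PP2) Ribo CPM and 9.79 and 8.97 (DE), 20.1 and 16.0 (PP1), 15.2, 12.4 and 26.7 (PP2) RNA CPM, with DE lowest in RNA but not past the threshold at PP1 (log2 0.94 ± 0.36, adjusted p = 0.0955). SNHG21, host of SCARNA15, held 2.48 and 0.543 (DE), 1.35 and 2.03 (PP1), 0.407, 1.81 and 1.37 (PP2) Ribo CPM and 0.475 and 0.731 (DE), 0.822 and 0.780 (PP1), 1.10, 0.918 and 2.21 (PP2) RNA CPM, on 3 to 48 counts a library, with overlapping stages in Ribo and RNA highest in PP2, where it did not pass (log2 1.23 ± 0.53, adjusted p = 0.111).

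For the remaining pair tested in both assays no snoRNA was listed here. SNHG11 held 16.1 and 12.3 (DE), 10.5 and 8.42 (PP1), 3.91, 10.9 and 2.17 (PP2) Ribo CPM and 12.9 and 10.3 (DE), 11.2 and 10.1 (PP1), 10.3, 11.1 and 15.6 (PP2) RNA CPM, and its stages overlapped in RNA. SNHG30 held 1.24 and 5.25 (DE), 1.61 and 2.03 (PP1), 0.940, 3.62 and 0.217 (PP2) Ribo CPM and 3.09 and 3.92 (DE), 3.496 and 2.81 (PP1), 4.80, 3.16 and 6.04 (PP2) RNA CPM, overlapping in both assays. Neither passed in any stage comparison.

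**Figure D3:**
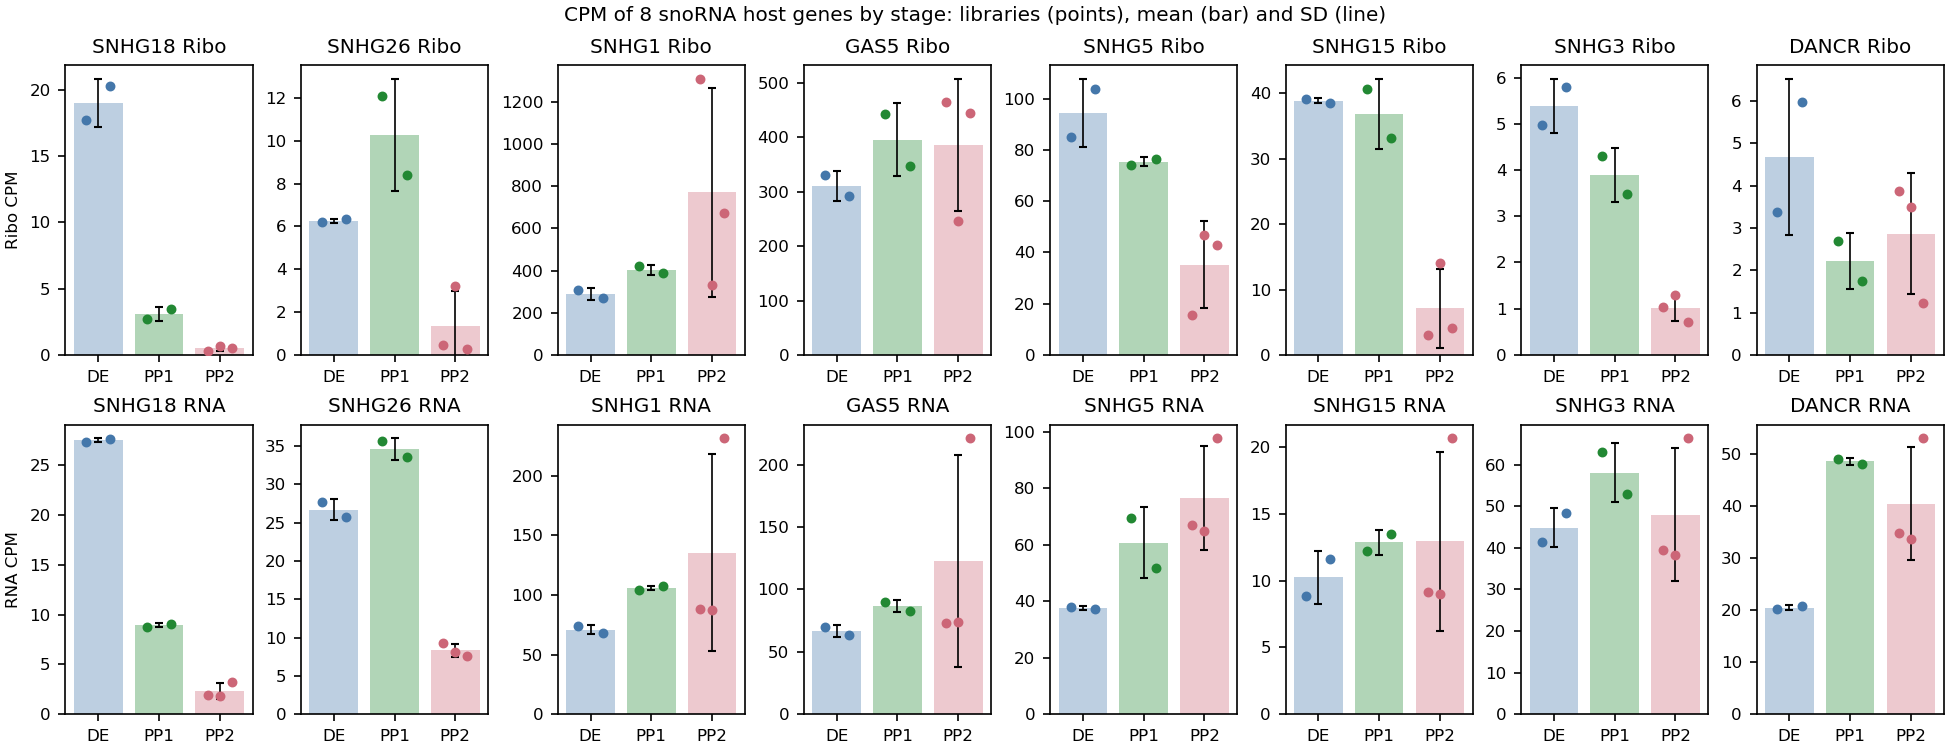
CPM of 8 snoRNA host genes by stage, Ribo in the upper row and RNA in the lower, with libraries as points, the mean as a bar and the standard deviation as a line; each panel has its own axis from 0. SNHG18 and SNHG26 have their lowest mean at PP2 in both rows, SNHG5, SNHG15 and SNHG3 have their lowest mean at PP2 in Ribo but not in RNA, and 1 PP2 RNA library stands above the other PP2 libraries in 7 of the 8 RNA panels.

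The remaining members were low in at least 1 assay. SNHG20, SNHG22 and SNHG31 were tested in RNA only, at 3.84 to 7.70, 1.25 to 4.32 and 1.19 to 2.35 RNA CPM, and none passed. SNHG25, host of SNORD104, and SNHG9, host of SNORA78, were tested in Ribo only, at 2.77 to 33.0 and 0.650 to 4.04 Ribo CPM, and neither passed. SNHG27 had 1 Ribo count and 5 RNA counts over all libraries, and SNHG28 had 0.

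Ribo at PP1 was compared with DE, and 1 of 26 tested members, SNHG18, fell, beside 7.53% of all tested genes (4.52% higher and 3.01% lower). At PP2 relative to PP1 SNHG18 and SNHG15 fell, 7.69% of members beside 5.01% of all genes (2.16% higher and 2.85% lower). At PP2 relative to DE SNHG18, SNHG15, SNHG3 and SNHG5 fell and none rose, 15.4% beside 27.6% (13.1% higher and 14.5% lower). The medians of the 26 were log2 -0.09, -0.97 and -1.10 in these comparisons, against -0.04, 0.04 and 0.03 over all genes. In PP2 over PP1, 24 of the 26 fitted values were negative, and in PP2 over DE 22 were. Without Ribo PP2 replicates 1 and 3, when 28 members passed the filter, the medians of the PP2 comparisons were log2 -0.19 and -0.28, with 16 and 18 of 28 negative and 1 and 3 members called, beside 4.54% and 14.2% of all genes. Without PP2 replicate 2 instead, 15 and 16 were called, beside 23.6% and 46.4% of all genes. Without any 1 of the DE or PP1 Ribo libraries the count at PP1 relative to DE was 0, beside 2.43% to 2.98%. That at PP2 relative to PP1 was then 0 or 1, beside 0.334% to 3.39%, and that at PP2 relative to DE was 2, beside 10.7% to 18.7%. The median fall at PP2 was thus log2 -0.97 and -1.10 with the libraries low in MT-RNR2 and -0.19 and -0.28 without them. The latter values rest on PP2 replicate 2 alone, where the median host gene lay log2 1.498 above the other PP2 libraries. The part of each library in the fall was not tested.

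The Ribo over RNA ratio within a stage was tested in 1 fit of all 14 libraries, relative to the scaling of each assay, so 0 on the log2 scale is close to the median of all genes. Members spread widely to either side. In DE 7 were higher in Ribo than in RNA and 3 lower, 41.7% of the 24 beside 36.8% of all genes; in PP1 7 and 4, 45.8% beside 24.8%; in PP2 4 and 8, 12 of the 24 beside 42.8%. GAS5, SNHG1, SNHG8 and SNHG12 passed as higher at all 3 stages, SNHG3, SNHG14 and SNHG16 as lower at all 3, and none was higher at 1 stage and lower at another. The gene models of the 4 higher genes held 4842, 3970, 6608 and 4266 bases. From end to end the RefSeq genes span 5145, 3908, 1062 and 4446 bases. The models of SNHG1 and SNHG8 were longer than these spans and so reached outside the RefSeq gene. All 4 models may include introns, where the snoRNAs lie. Whether their Ribo reads came from exons or from snoRNAs was not tested. In 9 members no stage passed. Leaving out 1 PP2 library at a time gave 10 to 16 calls in DE, beside 33.6% to 44.2% of all genes. In PP1 it gave 11 to 13, beside 21.9% to 32%, and in PP2 9 to 15, beside 34.2% to 49%. The 16, 13 and 15 calls without Ribo PP2 replicate 2 stand beside 44.2%, 32% and 49% of all genes, and the 9 in PP2 without Ribo PP2 replicate 1 beside 39.9%. Counts in DE and PP1 went lower in some fits that left 1 library in a group, in which fewer of all genes were called too.

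GAS5 had ratios of log2 3.33 ± 0.52 in DE, 3.35 ± 0.52 in PP1 and 2.63 ± 0.41 in PP2 (adjusted p = 0.000339, 0.000557 and 0.000173). For SNHG1 they were log2 3.13 ± 0.58, 3.09 ± 0.58 and 3.48 ± 0.48 in the same order of stages. Both genes passed at every stage in all 21 settings tried, and without the libraries that stood apart their PP2 ratios were log2 2.75 ± 0.17 for GAS5 and 2.93 ± 0.15 for SNHG1. Ratios of SNHG8 were log2 3.76 ± 0.63, 2.74 ± 0.59 and 2.29 ± 0.47, and those of SNHG12 were 3.42 ± 0.79, 3.19 ± 0.78 and 2.28 ± 0.61. Without those libraries the PP2 ratios were log2 3.64 ± 0.23 for SNHG8 and 3.72 ± 0.24 for SNHG12, above the values with all libraries. The call of SNHG12 at PP2 was lost without Ribo PP2 replicate 2 (log2 1.16, adjusted p = 0.071), its call at PP1 without either RNA PP1 library, and that of SNHG8 at PP1 without RNA PP1 replicate 2. With all libraries these 4 had the highest ratios of the 24 in DE and in PP1 and PP2 as well. GAS5 ranked at the 96.2, 97.6 and 97.9 percentile of all tested genes at the 3 stages.

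At the other end, SNHG3 had ratios of log2 -1.96 ± 0.36 in DE, -2.74 ± 0.39 in PP1 and -4.60 ± 0.33 in PP2. SNHG14 had log2 -2.52 ± 0.60, -1.94 ± 0.59 and -3.36 ± 0.51, and SNHG16 -1.55 ± 0.50, -2.34 ± 0.51 and -3.57 ± 0.43. Without the libraries that stood apart the PP2 ratios were log2 -3.89 ± 0.36 for SNHG3, -2.36 ± 0.19 for SNHG14 and -2.34 ± 0.30 for SNHG16. SNHG3 passed at every stage in all 21 settings, while SNHG14 was lost at PP1 in 4, SNHG16 at DE in 3 and SNHG16 at PP1 in 1, each a fit without 1 library. DANCR was lower in PP1 and PP2, at log2 -3.29 ± 0.54 and -2.83 ± 0.38, and did not pass in DE (log2 -1.03 ± 0.46, adjusted p = 0.0945). SNHG15, SNHG5 and SNHG19 were higher in DE and PP1, and at log2 0.08, -0.12 and 0.64 in PP2, where none passed. Without the libraries that stood apart SNHG15 and SNHG19 passed as higher at PP2 too, at log2 1.65 ± 0.25 (adjusted p = 0.00021) and 1.95 ± 0.49 (adjusted p = 0.00667), and SNHG5 was 0.52 ± 0.21 (adjusted p = 0.0629). At PP2 SNHG7, SNHG10, SNHG18 and SNHG26 also passed as lower. The last 4 calls did not hold without the 3 libraries that stood apart; the median of members at PP2 was then log2 0.70, with 11 higher and 5 lower of 26 beside 40.6% of all genes (20.2% higher and 20.5% lower), against -0.15 with all libraries.

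**Figure D4:**
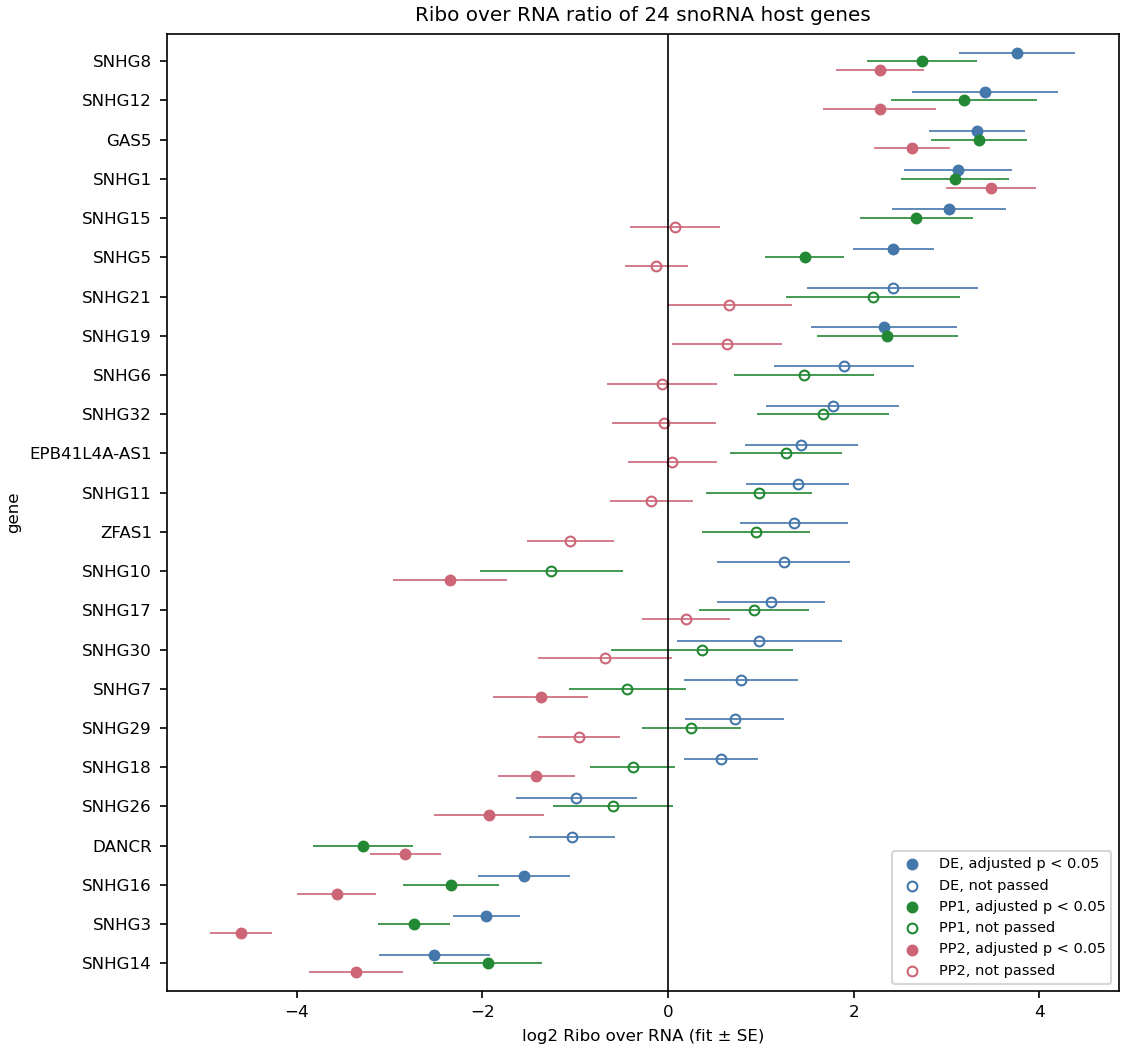
Log2 Ribo over RNA ratio of the 24 snoRNA host genes tested in both assays at each stage, with the standard error of the fit as a line and genes ordered by their value in DE. Filled points passed; SNHG8, SNHG12, GAS5 and SNHG1 lie at the upper right at all stages, SNHG16, SNHG3 and SNHG14 at the lower left, and most PP2 points, drawn from the fit of all libraries, lie left of the DE points of the same gene.

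The change of this ratio between stages, called translation efficiency (TE) here only as Ribo change minus RNA change, was tested as an interaction. No member passed at PP1 relative to DE, beside 0.269% of all genes (0.0707% higher and 0.198% lower). None passed at PP2 relative to PP1, beside 0.0777%. At an unadjusted p under 0.05 there were 2 and 4, and the share of all genes at that level was not counted. The DESeq2 Wald test called 0 in each, beside 1.56% and 1.72% of all genes. Calls with limma voom were 0 and 11, beside 2.97% and 13.1%. At PP2 relative to DE 4 of 24 fell, 16.7% beside 5.68% (2.01% higher and 3.67% lower), and none rose. These were SNHG10 (log2 -3.60 ± 0.95, adjusted p = 0.0393), SNHG15 (log2 -2.95 ± 0.76, adjusted p = 0.0368), SNHG3 (log2 -2.64 ± 0.48, adjusted p = 0.00836) and SNHG5 (log2 -2.55 ± 0.55, adjusted p = 0.0184). The median of the 24 was log2 -1.72, with 23 negative, against 0.02 over all genes. Without the 3 libraries that stood apart the median was log2 -0.34, with 20 of 26 negative, and SNHG15, SNHG3 and SNHG5 passed at smaller sizes of log2 -1.31, -1.86 and -1.84, together with ZFAS1 at -1.40. For PP2 over PP1 the median was then log2 0.00, against -1.22 with all libraries. The count at PP2 relative to DE was 0 without either RNA DE library, beside 0.365% and 0.45% of all genes, and 19 without Ribo PP2 replicate 2, beside 26.7%. Without any other single library it was 2 or 3, beside 2.41% to 7.09%.

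A C start with at least 5 pyrimidines was present in 7 of the 28 members whose start was used, SNHG4 being the seventh. It was present in 51.9% of 27 protein-coding snoRNA hosts and 4.04% of 27305 RefSeq promoters. Starts were counted on the transcribed strand, with the first listed start per symbol. SNHG6 and SNHG15 had ratios, but no start was used for them. The feature and its length were chosen after the starts and ratios had been seen, and no other definition was tried. The 6 with a ratio had medians of log2 2.05, 1.57 and -0.08 in DE, PP1 and PP2, and the 16 without the feature had 1.05, 0.31 and -0.82. The ranges overlapped at every stage, and GAS5, SNHG1 and SNHG8, with 3 of the 4 highest ratios in DE, were among the 16 by their annotated starts. Starts were not mapped in these cells, so some of the 16 may carry a tract that was not counted. SNHG18, with the longest run, had a ratio of log2 0.57 in DE, which did not pass.

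The other genes of the pathway were described from lists written with the members. Of 34 protein-coding snoRNA hosts, 2 rose and 0 fell in RNA at PP1 relative to DE, with a median of log2 0.39 (all genes 0.01), and 2 rose and 1 fell at PP2 relative to DE, with a median of 0.48 (all genes 0.05). HSPA9, a mitochondrial chaperone, rose at PP1 by log2 1.49 ± 0.26 (adjusted p = 0.00398), and EEF2, an elongation factor, by 0.75 ± 0.20 (adjusted p = 0.0275). In Ribo over RNA, unlike GAS5 and SNHG1, most of the protein-coding hosts that passed were lower, with 4 higher against 18 lower in DE, 2 against 20 in PP1 and 4 against 21 in PP2, and medians of log2 -1.34, -1.62 and -1.59. The ribosomal protein genes RPS2, RPL4 and RPSA and the elongation factor EEF1B2 had the lowest adjusted p in DE, at log2 -4.46 ± 0.48, -2.79 ± 0.35, -3.88 ± 0.45 and -3.18 ± 0.34. In RNA PP2 replicate 3, 26 of these 34 had their highest value of the 7 RNA libraries, as had 21 of the 28 noncoding hosts.

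Few genes of the snoRNA proteins passed between stages. None of 4 box C/D proteins and none of 4 box H/ACA proteins passed in RNA (edgeR; shares of all genes as above). At PP1 over DE, PP2 over PP1 and PP2 over DE their RNA medians were log2 -0.05, 0.07 and 0.20 for box C/D and 0.16, -0.26 and -0.06 for box H/ACA, against 0.01, 0.01 and 0.05 over all genes. In Ribo over RNA 2 of the 4 box C/D proteins, NOP56 and SNU13, were higher at every stage and none lower. DKC1, the pseudouridine synthase, rose in Ribo at PP2 relative to DE by log2 1.499 ± 0.35 (adjusted p = 0.0109). Of 8 assembly factors, ZNHIT6 alone passed between stages in RNA, at PP2 relative to DE (log2 0.67 ± 0.17, adjusted p = 0.0164, list median -0.06). Of 10 nonsense-mediated decay factors, SMG6, an endonuclease of that pathway, alone passed between stages, and fell in RNA at PP2 relative to DE (log2 -1.31 ± 0.33, adjusted p = 0.0167, list median -0.01). Of 8 neighbours of the host genes, 1 rose and 1 fell in RNA at PP1 relative to DE, namely RCC1, beside SNHG3, at log2 0.71 ± 0.21 (adjusted p = 0.0424), and ZBTB37, beside GAS5, at -0.58 ± 0.17 (adjusted p = 0.0417). USP46, beside DANCR, fell in RNA at PP2 relative to DE (log2 -0.82 ± 0.21, adjusted p = 0.0171), where DANCR rose.

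Counts of the small RNAs themselves were read as a description. Of 56 small RNAs listed for 23 hosts, 43 were analysed, 31 of them had 0 counts in all libraries and 12 had any. Of the 10 listed for GAS5 0 were among the 43, and of the 8 listed for SNHG1 6 were, each with 0 counts. Reads of such snoRNAs may be counted under the host or not at all. SNORD104, in SNHG25, had 866 and 755 (DE), 443 and 441 (PP1), and 15982, 1677 and 2407 (PP2) Ribo counts, against 3 to 13 in the RNA libraries. SNORD48, in SNHG32, had 429 to 2447 counts in the Ribo libraries and 0 in every RNA library. SNORA71B, in SNHG17, was highest in Ribo PP2 replicate 1 at 2275 counts, against 41 to 583 in the other Ribo libraries. SNORA73B, in SNHG3, had 3293 counts in RNA PP1 replicate 1 and 315 to 1000 in the other RNA libraries. Raw counts of SNORD104, SNORD48 and SNORA71B, not scaled for depth, were thus highest in Ribo PP2 replicate 1, the deepest library. Those of SNORD99, in SNHG12, and of SNORA73B were lowest of the Ribo libraries there, at 122 and 106. The part of snoRNA reads in the Ribo counts of the host genes was not tested.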

How the data were processed

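The members and the lists were chosen with earlier results of these data known. The deposited files held raw counts per gene for 14 libraries, unnormalized. Per the submitters' processing notes, cutadapt 1.18, Bowtie 1.2, STAR 2.7.1a and featureCounts 1.6.4 were used, with hg38 as the build; the strand setting, the annotation release and the features counted in Ribo are not given in the sources used here. Counts were filtered with filterByExpr, scaled with TMM factors (trimmed mean of M values) and tested over all genes with edgeR 4.0.16 quasi-likelihood tests in R 4.3.3, with Benjamini-Hochberg adjustment over all tested genes and a threshold of 0.05. RNA and Ribo were fitted separately for changes within an assay (7 libraries each), and together, with 6 groups, for Ribo over RNA and its change. Standard errors were derived from the edgeR tests, as the absolute log2 fold change divided by the square root of the F statistic. CPM used TMM-scaled totals within the assay, and RPKM the deposited gene length. Every member tested in both assays is named with its values, and of each related list at most 4 members past the threshold with the lowest adjusted p. Alternatives were DESeq2 1.42.0 size factors and its Wald test, limma 3.58.1 voom with sample quality weights, no filter, protein-coding totals, a replicate block, each replicate left out, and the 3 libraries that stood apart left out. Scripts were tested on simulated data. Start sequences are from RefSeq GRCh38.p14, matched by symbol, and 28 of the 32 members were used. Members on chromosome 8, where SNHG6 lies, were left out. No such filter was applied to the 27305 promoters set beside them. Host and snoRNA pairs were written from general knowledge.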

Additional observations from a re-analysis of the deposited data

Results flagged for a closer look

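In 4 host genes the change at PP2 relative to DE differed between the assays by an interaction test (edgeR quasi-likelihood, Benjamini-Hochberg over 14152 genes). The Ribo change minus the RNA change was log2 -3.60 ± 0.95 in SNHG10, -2.95 ± 0.76 in SNHG15, -2.64 ± 0.48 in SNHG3 and -2.55 ± 0.55 in SNHG5. SNHG10 was lost in 12 of 21 settings and SNHG15 in 12, while SNHG3 and SNHG5 were lost in 2, the fits without RNA DE replicate 1 or 2. Without the 3 libraries that stood apart SNHG10 did not pass and the other 3 did, at log2 -1.31 to -1.86. The part of the library differences in these values was not tested further.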

How the results depend on the processing

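Of 61 member calls, 25 passed under every alternative and none changed sign, and 122 member results that did not pass with all libraries passed under at least 1 alternative. Some of those 122 passed with the sign opposite to that with all libraries, 5 with the replicate block and 1 with voom among them. The PP2 ratio of SNHG17 was log2 0.20 with all libraries, -0.70 with voom and 1.30 without the 3 libraries that stood apart. Those of SNHG32, SNHG6 and SNHG11 went from -0.04, -0.06 and -0.18 to 1.83, 1.54 and 1.03 without these libraries. DESeq2 size factors and protein-coding totals kept every count of calls within 1.5 times. Counts of members called are given with the share of all genes called in the same fit, and "apart" stands for the fit without the 3 libraries that stood apart. In RNA at PP1 over DE 6 members (24.3% of all genes) compare with 10 (17%) without the filter, 16 (44.5%) with limma voom, 18 (47.6%) with the replicate block and 18 (49.8%) apart. At PP2 over PP1 2 (18.4%) compare with 8 (39%) with voom, 13 (39.7%) with the block and 12 (41.4%) apart, and at PP2 over DE 9 (33.5%) with 17 (23.1%) without the filter, 15 (52.8%) with voom, 15 (50.7%) with the block and 15 (52.5%) apart. In Ribo, 1 (7.53%) at PP1 over DE compares with 0 (4.94%) with the block. At PP2 over PP1 2 (5.01%) compare with 17 (27.7%) with voom, 0 (1.33%) with the block and 1 (4.54%) apart, and at PP2 over DE 4 (27.6%) with 17 (45.8%) with voom. For TE, 0 (0.269%) at PP1 over DE compares with 2 (9.33%), DANCR and SNHG5, apart, and 0 (0.0777%) at PP2 over PP1 with 11 (13.1%) with voom. At PP2 over DE 4 (5.68%) compare with 8 (14.6%) with the DESeq2 Wald test and 15 (29.2%) with voom. For Ribo over RNA, 10 (36.8%) in DE compare with 19 (25.1%) without the filter, 16 (42%) with the Wald test, 18 (47.4%) with voom and 23 (56.7%) apart, and 11 (24.8%) in PP1 with 18 (45.7%) with voom and 19 (45.3%) apart. Without 1 PP2 library at a time, RNA calls were 6 to 18 (22.7% to 49.8%) at PP1 over DE, 2 to 12 (12.6% to 41.4%) at PP2 over PP1 and 10 to 15 (29.1% to 52.5%) at PP2 over DE. In that order Ribo calls were 1 (5.8% to 15.1%), 0 to 15 (1.33% to 23.6%) and 2 to 16 (14.4% to 46.4%). TE calls were 0 (0.17% to 0.952%), 0 to 10 (0.0142% to 8.01%) and 2 to 19 (2.41% to 26.7%). Ribo over RNA gave 10 to 16 (33.6% to 44.2%) in DE, 11 to 13 (21.9% to 32%) in PP1 and 9 to 15 (34.2% to 49%) in PP2. Leaving out a DE or PP1 library left 1 in its group, and calls were then fewer in several comparisons, as given above. The replicate block rests on replicate numbers, and whether these pair the libraries is not given in the sources used here. Deviations of same-numbered libraries correlated at -0.143 to 0.0997 between assays and -0.270 to 0.211 between stages. In a group of 2 libraries the deviations mirror each other, so these values cannot decide whether the libraries were paired. Replicate 3 exists in PP2 alone, so the block gives it a level of its own. The causes of these differences were not tested. Depth limits the Ribo values of SNHG30, SNHG10, SNHG21, SNHG26, SNHG9, SNHG18, DANCR and SNHG3, each with 3 to 10 counts in its lowest library.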
